A study of Mus musculus with 11 samples.

Results

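The regions described here are gains of H3K27 acetylation (H3K27ac) at sites that already had some reads in control atrial cardiomyocytes, called gains with control signal below. The mark was mapped by CUT&RUN, in which an antibody to the mark directs a nuclease that cuts out and releases the chromatin around it. The 11 libraries were made from cardiomyocyte nuclei, sorted for pericentriolar material 1 (PCM1), which cardiomyocytes hold at the nuclear envelope, of pooled left and right atria of mice aged 8 to 12 weeks: 6 libraries from *Tbx5*G125R/+ mice, which carry a G125R missense allele of *Tbx5*, a T-box transcription factor gene, on a single chromosome, and 5 from control mice. No other allele, agent or treatment is named in the labels for either genotype. Per the study's methods the change was made in the mouse germ line by genome editing, so it is not restricted to the atria, and the labels do not give the sex of the mice.

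The authors deposited 1652 regions that differed between the genotypes, and for each of them the normalised reads of 1 bin of 500 bp, the most significant of the region (the top bin). The gains with control signal were chosen by 2 values of that bin: the mean over the 6 *Tbx5*G125R/+ libraries had to be above the mean over the 5 control libraries, and the control mean had to be 5 normalised reads or more. This selected 422 of the 1652 regions (25.5%). A further 530 gains had a control mean from 1 to under 5, 387 gains had a control mean under 1, and 313 regions were losses. Since the genotype difference chose these regions, their levels, ratios and separation are given as a description without a test.

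H3K27ac is laid down on nucleosomes by acetyltransferases such as CBP and marks active promoters and enhancers. The amount of the mark at an enhancer generally goes with its activity, so that a region can carry a low level in a cell type where it is only weakly used. Tbx5 binds T-box sites in such elements and, with partners such as Gata4, Nkx2-5 and Mef2c, controls genes of the atrial contractile, calcium handling and conduction programme.

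Promoter sequences are printed where the top bin overlapped a promoter window, 250 bases before to 50 after a transcription start, since no other sequence was used here. The top bins of 26 of the 422 regions overlapped 30 such windows of protein-coding genes. The start itself lay inside the bin in 21 of the 30 and outside it in 9, *Bcl2l2* among them. The 6 with the highest control means are shown, together with the promoter of *Mettl22*, which held the only T-box core match among the 30. *Dhrs7* encodes a short-chain dehydrogenase, *Cd82* a tetraspanin, *Pcdh18* a protocadherin, *Parp11* a mono-ADP-ribosyltransferase, *Tnfrsf14* a receptor of the tumour necrosis factor family, *Bcl2l2* an anti-apoptotic Bcl-2 relative and *Mettl22* a methyltransferase. Each stretch is the 250 bases before the start, 5′ to 3′ on the strand of the gene, from RefSeq on GRCm38.p6, the assembly of mm10, and capitals mark motif matches.
Dhrs7, chr12:72664829-72665078, minus strand: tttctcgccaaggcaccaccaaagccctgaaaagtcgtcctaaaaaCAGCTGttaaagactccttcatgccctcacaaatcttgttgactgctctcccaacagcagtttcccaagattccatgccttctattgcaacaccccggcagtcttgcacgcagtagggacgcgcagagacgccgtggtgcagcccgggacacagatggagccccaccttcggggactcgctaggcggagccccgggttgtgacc
Cd82, chr2:93452673-93452922, minus strand: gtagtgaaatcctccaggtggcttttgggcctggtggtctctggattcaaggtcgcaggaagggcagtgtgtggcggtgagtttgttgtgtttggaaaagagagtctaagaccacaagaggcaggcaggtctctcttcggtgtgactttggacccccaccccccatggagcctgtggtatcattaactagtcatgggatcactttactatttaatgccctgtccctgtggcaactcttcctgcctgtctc
Pcdh18, chr3:49757317-49757566, minus strand: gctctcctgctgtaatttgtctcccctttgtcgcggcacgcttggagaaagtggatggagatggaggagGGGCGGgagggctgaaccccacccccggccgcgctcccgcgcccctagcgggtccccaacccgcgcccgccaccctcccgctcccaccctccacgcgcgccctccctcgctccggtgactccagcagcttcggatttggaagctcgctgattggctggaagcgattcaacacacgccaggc
Parp11, chr6:127453377-127453626, plus strand: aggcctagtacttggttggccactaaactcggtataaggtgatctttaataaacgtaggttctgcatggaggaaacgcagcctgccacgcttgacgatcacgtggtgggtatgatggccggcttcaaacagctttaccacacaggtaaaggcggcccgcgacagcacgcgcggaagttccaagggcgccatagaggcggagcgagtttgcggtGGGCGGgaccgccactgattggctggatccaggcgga
Tnfrsf14, chr4:154928078-154928327, minus strand: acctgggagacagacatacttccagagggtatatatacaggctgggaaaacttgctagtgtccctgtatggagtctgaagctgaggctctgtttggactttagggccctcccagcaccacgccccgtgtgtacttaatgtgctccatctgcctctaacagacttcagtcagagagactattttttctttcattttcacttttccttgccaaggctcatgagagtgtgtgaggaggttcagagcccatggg
Bcl2l2, chr14:54883175-54883424, plus strand: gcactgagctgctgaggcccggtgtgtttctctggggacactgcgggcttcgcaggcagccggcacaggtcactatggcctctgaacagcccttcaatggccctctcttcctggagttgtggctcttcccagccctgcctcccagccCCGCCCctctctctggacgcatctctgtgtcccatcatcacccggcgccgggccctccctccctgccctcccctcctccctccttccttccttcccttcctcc
Mettl22, chr16:8470563-8470812, plus strand: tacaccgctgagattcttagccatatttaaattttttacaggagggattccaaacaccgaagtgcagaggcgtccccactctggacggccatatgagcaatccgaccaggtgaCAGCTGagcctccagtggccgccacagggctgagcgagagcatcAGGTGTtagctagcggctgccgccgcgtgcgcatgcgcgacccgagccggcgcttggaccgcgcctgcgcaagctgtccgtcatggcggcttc

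The capitals in *Pcdh18*, *Parp11* and *Bcl2l2* are KLF/SP matches, GGGCGG or its reverse complement, at bases -181 to -176, -37 to -32 and -103 to -98 from the start. Those in *Dhrs7* and the upstream match in *Mettl22* are E-boxes, CAGCTG, at bases -204 to -199 and -137 to -132. The T-box core AGGTGT of *Mettl22* lay at bases -93 to -88. The marked matches of *Mettl22* and *Bcl2l2* lay outside the top bin whose acetylation is given, and those of *Dhrs7*, *Pcdh18* and *Parp11* inside it. Over the full promoters of 300 bases, including 50 after the start, *Pcdh18* and *Parp11* held 23 and 25 CpG dinucleotides, whereas *Cd82* and *Tnfrsf14* held 4 and 2. These are therefore CpG-rich and CpG-poor promoters side by side. The top bin covered all of the 250 printed bases at *Dhrs7* and 62 of them at *Mettl22*, and 76 at *Bcl2l2*.

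The *Dhrs7* bin had 204 ± 23.6 normalised reads in *Tbx5*G125R/+ and 111 ± 35.1 in control nuclei (SD, n = 6 and 5, as for all levels below). The *Cd82* bin had 250.4 ± 71.8 and 62.2 ± 30.3, and the *Parp11* bin 186 ± 24.7 and 49.6 ± 33.8, in *Tbx5*G125R/+ and in control nuclei. *Pcdh18* had 110.7 ± 13.8 in *Tbx5*G125R/+ and 53.6 ± 11.1 in control nuclei. The *Tnfrsf14* bin, at 108 ± 6.01 in *Tbx5*G125R/+ and 43.2 ± 19.1 in control nuclei, had the lowest coefficient of variation of all 422 regions over the *Tbx5*G125R/+ libraries, 5.54%. *Bcl2l2* had 102 ± 17.4 and 38.3 ± 8.81, and *Mettl22* 55.5 ± 15.8 and 11.7 ± 8.06, in *Tbx5*G125R/+ and in control nuclei. In all 7 the lowest *Tbx5*G125R/+ library was above the highest control. With library factors computed over the listed bins alone (TMM, described below), *Dhrs7*, *Pcdh18*, *Tnfrsf14* and *Bcl2l2* had ratios under 1.

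Across the 30 promoters, 18 (60.0%) held a KLF/SP match, against 46.2% of 21263 protein-coding promoters of the same length in the reference. Other listed regions had few such windows. A match was found in 8 of 12 (66.7%) for gains with a control mean from 1 to under 5. It was found in 2 of 4 for gains under 1 and in 0 of 3 for losses. Over all 49 listed windows, the 30 included, the share was 57.1%. Shares above the reference were thus not limited to the 30 promoters. The 30 windows are not independent, and 7 of them, at 3 bins, shared bases with another window. These were 3 of *Glrx2*, *Bag1* with *Chmp5*, and *Slirp* with *Alkbh1*, so that some sites count more than once. By bin, 16 of 26 had a KLF/SP match in a window, and 11 had one inside the bin itself. Median GC content of the 30 windows was 61.8%, against 56.3% in the reference and 60.7% over all 49 listed windows. The median number of CpG dinucleotides was 23, against 13 in the reference and 21 over the 49. The E-box was found in 6 of the 30 (20%) against 15.6%, the TEAD motif GGAATG in 16.7% against 13.6% (4 distinct sites, that of *Slirp* and *Alkbh1* being 1), and the GATA motif AGATAA in 6.67% against 9.65%. The T-box core AGGTGT was found in 3.33% against 12.7%, and the AP-1 motif TGANTCA in 3.33% against 6.99%. The longer T-box motif AGGTGTGA, which contains the core, and the MEF2 motif had no match, against 1.15% and 0.489% of all promoters. Both strands were searched. These are descriptions of promoter windows and say nothing of the regions without one, for whose bins no sequence was read.

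Control signal was low in many of the 422 regions, so that the words "already acetylated" hold for them to different degrees. No background level was used here, so low control values cannot be told apart from background reads. The control mean was 12.9 normalised reads in the median region, with quartiles of 7.68 and 29.2, equal to a median of 61 sequenced reads in all 5 control libraries together. In 159 regions (37.7%) it was under 10, and 49 regions had 50 or more. As a yardstick, the regions that lost the mark had a median control mean of 90.2, with a lower quartile of 52.9. Only 43 of the 422 (10.2%) reached that lower quartile and 19 reached the median. In 157 regions every control library had 5 or more normalised reads, whereas in 213 regions at least 1 control library had no read in the bin. The 213 regions were unevenly spread over libraries: control 5, the shallowest control, was at 0 in 171 of the 422 regions, and controls 1 to 4 were at 0 in 12, 5, 28 and 50. In 64 regions most of the control signal came from 1 library, and leaving out 1 control library took the control mean of 93 regions (22.04%) under 5.

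In *Tbx5*G125R/+ nuclei the median of the same bins was 73.9 normalised reads, with quartiles of 49.7 and 113, so that the median ratio to control was 5.27 (3.85 to 7.02, with extremes of 1.85 and 21.9). The gains with a control mean from 1 to under 5 had medians of 28.2 in *Tbx5*G125R/+ and 2.18 in control nuclei, and those under 1 had medians of 18.9 and 0.409. A *Tbx5*G125R/+ mean of 100 or more was found in 136 of the 422 regions, against 2 of the 917 other gains. The classes were split by control mean and each gain had to exceed its own, so this contrast follows in part from the selection. In 302 of the 422, the *Tbx5*G125R/+ mean was above 52.9, the lower quartile of the control levels of the losses. No *Tbx5*G125R/+ library was at 0 in any of the 422 bins.

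**Figure D1:**
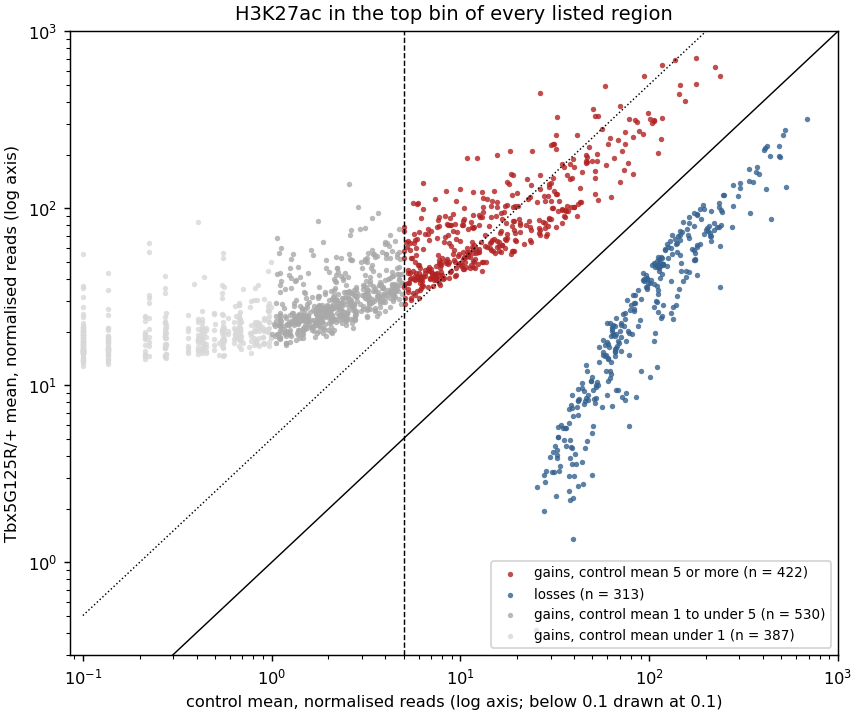
Mean normalised reads of the top bin in *Tbx5*G125R/+ (vertical, log axis) against control nuclei (horizontal, log axis) for all 1652 regions, with equality as the solid line, a ratio of 5 as the dotted line and the control mean of 5 as the dashed line. The 422 gains right of the dashed line follow a band whose *Tbx5*G125R/+ level climbs with the control level, above the flat band of the 917 other gains.

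Levels in the 2 genotypes went together across the 422 regions, with a Pearson r of 0.85 between the log2 means and a Spearman correlation of 0.80, given as a description over regions that share libraries and that were selected on these values. The ratio was smaller where control signal was higher. With the regions in 4 groups of near-equal size by control mean, the median ratio was 7.03 in the lowest group, 5.61 and 4.26 in the next and 3.35 in the highest, with control means from 29.2 to 238. The difference ran the other way, with medians of 37.3, 44.4, 56.9 and 132.7 normalised reads. The table lists only regions past a significance filter, so small ratios at low control means are not among them. By size of the ratio, 3 regions were under 2, 120 from 2 to under 4, 226 from 4 to under 8, and 73 were 8 or more.

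**Figure D2:**
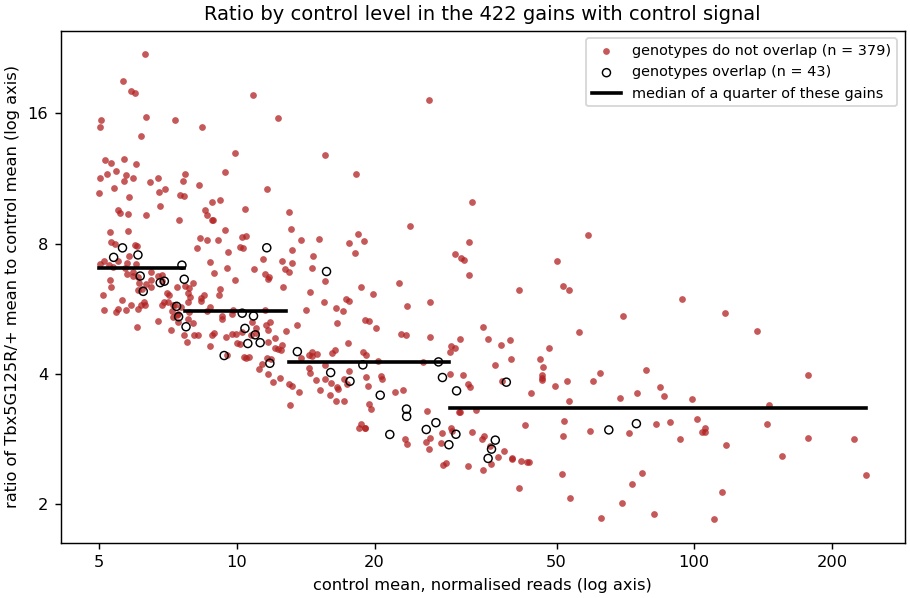
Ratio of the *Tbx5*G125R/+ mean to the control mean (log axis) against the control mean (log axis, normalised reads) for the 422 gains with control signal, with open circles for the 43 regions in which the genotypes overlapped. The black lines are the medians of the 4 groups by control mean, 7.03, 5.61, 4.26 and 3.35 from low to high control means.

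The lowest *Tbx5*G125R/+ library was above the highest control in 379 of the 422 regions (89.8%), against 73.2% of all 1652 listed regions, 92.5% of the gains with a control mean from 1 to under 5 and 87.9% of those under 1. The rule used this contrast, so nothing is read from the count. The 43 regions with overlap included *Arel1*, a ubiquitin ligase gene, at 229.6 ± 63.8 in *Tbx5*G125R/+ and 74.7 ± 43.5 in control nuclei, and *Rhbdd1*, a rhomboid protease gene, at 193 ± 56.7 and 65.1 ± 35.4; they were singled out after their values were seen, for their control means, and both had ratios under 1 with TMM factors. An edgeR quasi-likelihood test on the whole reads recovered from the normalised values, with the deposited size factors and Benjamini-Hochberg adjustment over the 1652 bins, put all 422 at an adjusted p under 0.05, as it did 81.1% of all listed bins in this direction. The bins had been chosen on these libraries, so that count is no independent evidence.

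The libraries of 1 genotype differed among themselves, by coefficient of variation more so in controls, whose bins held fewer reads. Measured against sampling noise, control pairs differed less. Chi-square per degree of freedom was 5.44 to 6.91 for pairs of control libraries and 6.95 to 9.64 for pairs of *Tbx5*G125R/+ libraries. Both measures depend on the number of reads, and the part of depth in this contrast was not tested. The coefficient of variation had a median of 30.2% over the *Tbx5*G125R/+ libraries and 70.2% over the control libraries, and it was the higher of the 2 in controls in 392 of the 422 regions. In the losses the medians were 39.1% and 35.9%. The top bins of all regions held 43183 to 161738 reads in the *Tbx5*G125R/+ libraries and 27118 to 72442 in the control libraries, and the median region held 623 reads in all *Tbx5*G125R/+ and 61 in all control libraries together. The 422 bins took 52.8 to 55.4% of those reads in *Tbx5*G125R/+ and 13.2 to 25.3% in control libraries.

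Control 5 stood apart in these regions. Its median level over the 422 bins was 5.85 normalised reads, against 13.8 to 16.4 in controls 1 to 4, and it was the lowest control in 199 of them. Its median over the losses, 105, was the highest of the controls, which had 75.6 to 92.2. Without control 5 the median ratio of the 422 regions was 4.55 and the rule selected 469 regions, of which 414 were among the 422. Among the *Tbx5*G125R/+ libraries, replicate 5, the shallowest, had the highest median, 87.5, against 66.5 to 75.3 in the others, and it was the highest in 158 regions. Without the shallowest library of each genotype, an alternative added after the data had been seen, the median ratio was 4.39. The part of depth in these levels was not tested.

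**Figure D3:**
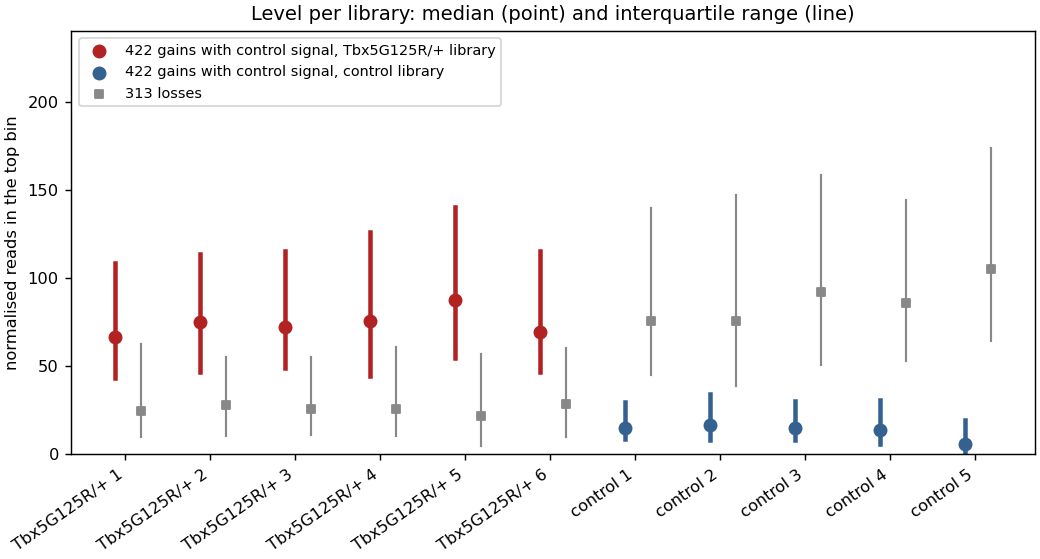
Median (point) and interquartile range (line) of normalised reads in each library, for the 422 gains with control signal in red (*Tbx5*G125R/+) and blue (control), and for the 313 losses in grey. The medians of the 422 regions ran from 66.5 to 87.5 in *Tbx5*G125R/+ libraries and from 5.85 to 16.4 in control libraries, with control 5 lowest.

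For 73 of the 422 regions, whether the ratio was above or below 1 depended on how libraries were scaled. Factors from the trimmed mean of M values (TMM), taken over the listed bins alone, which hold mostly gains, moved the log2 ratio of the listed regions by a median of -1.75. TMM takes most bins as unchanged, which does not hold for bins listed for a difference, so its factors take up part of the gain itself. On that scale the median ratio of the 422 regions was 1.55, and 73 of them, whose deposited ratios went up to 3.32, had a ratio under 1. The count test with these factors put 73 of the 422 regions higher and 6 lower in *Tbx5*G125R/+ nuclei, and over all listed bins the share of higher among its calls was 71.0%, against 81.1% with the deposited scaling. The named regions that change direction on that scale are given with each group below. There, a change of direction means a gain smaller than the typical shift of the listed bins, and is not read as a loss of the mark. Without any single library none of the 422 changed direction, but the ratio of 97 moved by more than 1.5-fold. The selection nearly fixed that direction: in the 379 regions without overlap between the genotypes no single library could reverse it.

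The region with the highest control mean lay inside *Spidr*, a gene for a scaffold protein of homologous recombination (chr16:15944751-15953000). Its bin had 456.3 to 646.7 normalised reads in *Tbx5*G125R/+ libraries, with a median of 559.5, against 367.5, 274.6, 191.2, 242.4 and 113.1 in controls 1 to 5. The lowest *Tbx5*G125R/+ library was above the highest control, and control 5 was the lowest control. Means were 555 ± 61.1 in *Tbx5*G125R/+ and 238 ± 94.7 in control nuclei, a ratio of 2.34.

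The region near *Lrrc55*, a gene for an auxiliary subunit of BK potassium channels, had the second highest control mean (chr2:85231001-85254500, 55 kb from the gene). Its *Tbx5*G125R/+ libraries ranged from 534.2 to 691.3 with a median of 653.7, against 202.4, 305.9, 209.2, 209.1 and 189.2 in the controls. Here 4 controls lay close together and control 2 stood above them. It was 1 of 5 listed regions within 89.5 kb. At the other end of that stretch, a region near the olfactory receptor gene *Olfr987* (chr2:85317751-85320500), had 578.8 to 785.5 in *Tbx5*G125R/+ libraries with a median of 636.2, against 149.1, 111.1, 111.3, 113.6 and 99.5 in the controls. The controls at *Olfr987* were even, with control 1 above the others. Between them lay another region assigned to *Olfr987*, at 305 ± 33.1 in *Tbx5*G125R/+ and 104 ± 27.9 in control nuclei, which had a ratio under 1 with TMM factors, as did the one near *Lrrc55*.

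A gene-poor stretch of chromosome 18 held the highest *Tbx5*G125R/+ mean of all. The bin at chr18:85248501-85253000, with no protein-coding gene within 100 kb, had 617.9 to 875.2 normalised reads in *Tbx5*G125R/+ libraries, with a median of 671.7, against 138.5, 213.3, 304.8, 191.1 and 39.0 in the controls. The groups were far apart, and control 5 was again the lowest. Its means were 706 ± 105 and 177 ± 97.9. In the same stretch of 839 kb, 4 of 5 listed regions were gains with control signal, among them chr18:85935501-85940500 at 379.5 ± 76.1 in *Tbx5*G125R/+ and 69.7 ± 40.8 in control nuclei.

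*Iqgap2* encodes a scaffold that binds the small GTPases Cdc42 and Rac1, and its strongest region (chr13:95824751-95830500) lay inside the gene. The *Tbx5*G125R/+ libraries had 613.5 to 795.8 normalised reads, with a median of 687.2, against 174.7, 264.4, 79.8, 91.4 and 76.1 in the controls. Controls 1 and 2 were thus well above controls 3 to 5, whereas the *Tbx5*G125R/+ libraries were even, and the groups did not overlap. The ratio was 5.03.

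*Lgals3* encodes galectin-3, a galactoside-binding lectin that macrophages also make in quantity. The bin inside the gene (chr14:47372751-47378250) had 341.0 to 542.5 normalised reads in *Tbx5*G125R/+ libraries, with a median of 384.8, against 158.7, 117.2, 157.4, 206.4 and 138.5 in the controls. All control libraries were acetylated here, and every *Tbx5*G125R/+ library was higher. Means were 402 ± 74.4 and 156 ± 33.0, a ratio of 2.58.

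The other regions among the 12 with the highest control means lay inside *Cwc27* (503 ± 194 in *Tbx5*G125R/+ and 177 ± 42.5 in control nuclei), *Topaz1* (494 ± 97.6 and 145 ± 31.7), *Atp8a2* (441 ± 106 and 144 ± 56.7) and *Golgb1* (321 ± 75.2 and 117 ± 37.7) and near *Tmem216* (245 ± 23.1 and 115 ± 36.9) and *Dhrs7*. *Cwc27* encodes a cyclophilin of the spliceosome, *Topaz1* a germ-cell protein, *Atp8a2* a phospholipid flippase, *Golgb1* the Golgi protein giantin and *Tmem216* a protein of the ciliary transition zone. In all 12 regions the lowest *Tbx5*G125R/+ library was above the highest control. With TMM factors over the listed bins, the regions at *Spidr*, *Lrrc55*, *Cwc27*, *Lgals3*, *Atp8a2*, *Golgb1*, *Tmem216* and *Dhrs7* had log2 ratios under 0.

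**Figure D4:**
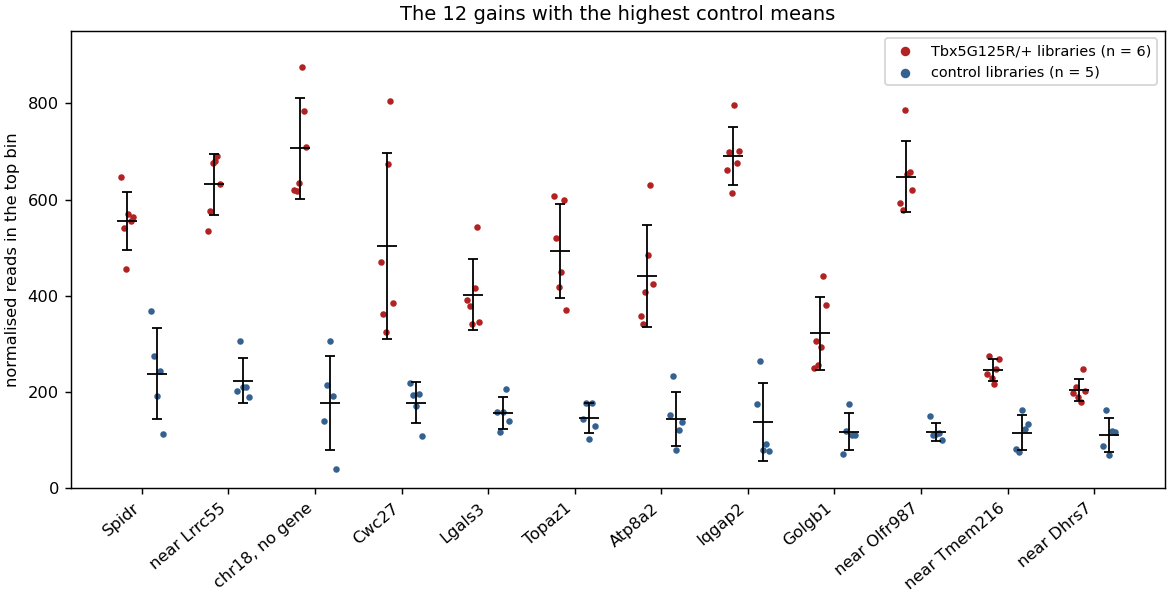
Normalised reads of the top bin in each *Tbx5*G125R/+ library (red, left of each pair) and control library (blue, right) for the 12 gains with the highest control means, with mean and SD in black. Every red point lies above every blue point of the same region, and control means range from 238 at *Spidr* to 111 at *Dhrs7*.

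The largest differences in normalised reads came from regions already named and from *Olfm3*, *Pls1*, *Galnt9* and *Laptm4b*. *Olfm3* encodes a secreted olfactomedin glycoprotein, and the bin inside it (chr3:115063251-115066500) had 456.4 to 652.3 in *Tbx5*G125R/+ libraries, with a median of 568.8, against 77.8, 86.5, 49.5, 90.02 and 165.8 in the controls. Control 5 was the highest control at *Olfm3*, as in 37 of the 422 regions. *Pls1* encodes the actin-bundling protein plastin 1, and its bin (chr9:95813501-95816750) had 343.5 to 622.4 with a median of 489.3, against 115.0, 62.7, 51.7, 63.7 and 0 in the controls. *Galnt9*, a gene of the family that starts mucin-type O-glycosylation, had a bin 6.87 kb away (chr5:110626751-110631000) with 235.7 to 743.8 in *Tbx5*G125R/+ libraries, with a median of 442.6, against 3.20, 61.3, 14.6, 34.6 and 17.6 in the controls. The *Galnt9* bin combined a *Tbx5*G125R/+ mean of 451 ± 170 with a low control mean of 26.3 ± 22.6, so that it was among the largest both by difference and by ratio, at 17.2.

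The 10 largest ratios occurred at control means from 5.05 to 26.3. The region inside *Nrg2*, the gene of neuregulin 2, a ligand of ErbB receptors, had the highest ratio, 21.9 (chr18:36192751-36197000). Its *Tbx5*G125R/+ libraries had 121.5 to 176.5 normalised reads, with a median of 131.9, against 0, 6.81, 0, 11.1 and 13.7 in the controls. The *Tbx5*G125R/+ libraries were even, while the control mean of 6.31 rested on 3 libraries.

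The next by ratio were *Cyp4f17*, a cytochrome P450 gene (19.0), *Jak1*, a cytokine receptor kinase gene (18.03), *4930548H24Rik* (17.9), *Colgalt2*, a collagen galactosyltransferase gene (17.7), *Galnt9*, *Robo1*, a Slit receptor gene (15.7), *Cep112*, a centrosomal protein gene (15.6), and 2 regions without a gene within 100 kb on chromosomes 14 and 3 (15.5 each). The regions assigned to *Jak1* and *Robo1* lay outside the genes, 67.7 and 83.8 kb away. At the region near *Robo1* the controls had 6.39, 25.2, 0, 0 and 0 normalised reads, so that 1 library gave most of the control signal. The *Tbx5*G125R/+ libraries had 58.7 to 149.7 there. Without control 2 the *Robo1* ratio was 62.3. Without 1 control library each, the ratios of *4930548H24Rik* and *Jak1* were 49.6 and 41.6 (control 1), those of the regions on chromosomes 3 and 14 were 35.04 (control 2) and 32.2 (control 3), and those of *Cyp4f17*, *Colgalt2* and *Cep112* were 29.9, 26.7 and 25.1 (control 1). That of *Galnt9* was 25.8 without control 2. None of the 10 regions changed direction with TMM factors. Leaving out a single library could not change it, since the genotypes did not overlap in these regions.

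The 8 smallest ratios were found in regions with even replicates, with coefficients of variation from 8.34 to 20.5% over the *Tbx5*G125R/+ and from 13.6 to 32.0% over the control libraries. All listed regions had passed a significance filter, which small ratios pass more readily with even replicates, so nothing is read from this evenness. *Zmiz1* encodes a coactivator of the PIAS family, and its region, 79 kb from the protein-coding gene and over the start of the antisense transcript *Zmiz1os1* (chr14:25375751-25380000), had 106.6 to 129.1 in *Tbx5*G125R/+ libraries, with a median of 113.4, against 54.3, 61.3, 73.1, 69.2 and 54.6 in the controls. The ratio at *Zmiz1* was 1.86. At *Ptprk*, a receptor tyrosine phosphatase gene, the *Tbx5*G125R/+ libraries had 127.8 to 182.7 and the controls 71.4, 66.1, 87.7, 98.3 and 85.8. *Mlxip*, the gene of the glucose-responsive factor MondoA, had 140 ± 19.0 in *Tbx5*G125R/+ and 69.7 ± 16.1 in control nuclei, and *Cfl2*, the gene of muscle cofilin, had 90.3 ± 14.1 and 41.4 ± 5.78. The genotypes did not overlap in any of these regions. *Dhrs7* (ratio 1.85), *Tmem216* (2.13), *Pcdh18* (2.06) and a gene-free region on chromosome 5 (2.23) completed the 8 smallest, and all 8 changed direction with TMM factors over the listed bins.

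At the limit itself, the regions just inside were *Sik2* (control mean 5.01), *Lats2* (5.02), the third region of *Laptm4b* (5.03), *4930432M17Rik* (5.03) and a region on chromosome 3 (5.05), with *Tbx5*G125R/+ means from 36.0 to 78.1. Just outside were *Ldb2* (4.92), a region on chromosome 1 (4.90), *Cdk14* (4.89), *Ubtf* (4.88) and *Cdh22* (4.84), with *Tbx5*G125R/+ means from 28.8 to 42.8. These regions differed little in control level because they were chosen as the nearest to the limit on either side. *Lats2*, a Hippo pathway kinase gene, had 5.33, 3.41, 1.12, 15.2 and 0 in the controls, so a single library placed it inside, and its ratio of 7.17 was 14.6 without control 4. The ratio of *Sik2*, 10.5, was 15.8 without control 1, and that of *Ubtf*, 7.79, was 16.02 without control 1.

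By position, the regions inside a gene or within 100 kb of one were assigned to 344 genes, of which 324 had 1 such region, 16 had 2 and 4 had 3 or more. These 4 were *Iqgap2*, *Kdr*, *Laptm4b* and *Dnm3*. A gene was assigned where its body held the middle of the top bin, and otherwise as the nearest within 100 kb, so the assignment says nothing of which gene a region acts on. Regions given under a gene name therefore include some that lay outside that gene.

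*Iqgap2* held 4 of the 422 regions and 3 weaker gains. From low to high coordinates, the 4 regions had 181 ± 20.8, 691 ± 60.3, 114 ± 47.7 and 60.2 ± 15.5 normalised reads in *Tbx5*G125R/+ nuclei, against 76.7 ± 23.8, 137 ± 81.7, 13.1 ± 8.31 and 13.8 ± 8.78 in control nuclei. Both genotypes were highest in the second region, and the ratio ran from 2.36 to 8.68. Levels of the weaker gains in the gene were 18.4 to 21.6 in *Tbx5*G125R/+ and 0 to 1.10 in control nuclei. The region with the ratio of 2.36 changed direction with TMM factors and the other 3 did not.

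*Kdr* encodes the VEGF receptor 2 of endothelial cells. Its 4 regions lay from 58.1 kb outside the gene to inside it (chr5:75873501-75950500 from end to end), with 310 ± 87.3, 175 ± 37.6, 36.3 ± 10.2 and 87.7 ± 23.4 in *Tbx5*G125R/+ nuclei, against 106 ± 44.8, 59.2 ± 24.5, 6.30 ± 3.91 and 6.17 ± 11.6 in control nuclei. The outermost region was acetylated in every control, at 100.1, 117.2, 84.3, 52.6 and 173.6. The one inside the gene had 4.26, 26.6, 0, 0 and 0 in the controls, so its ratio of 14.2 was 82.3 without control 2. The regions with means of 310 and 175 in *Tbx5*G125R/+ nuclei changed direction with TMM factors.

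*Laptm4b* encodes a lysosomal membrane protein. Its 4 regions spanned chr15:34246751-34288250, with 366 ± 66.4, 194 ± 64.4, 74.8 ± 27.7 and 149 ± 27.4 in *Tbx5*G125R/+ nuclei, against 50.1 ± 41.0, 46.6 ± 12.3, 5.03 ± 5.68 and 51.7 ± 20.2 in control nuclei. They were the only listed regions of the gene. The third, just inside the limit, had a ratio of 14.9, which was 25.7 without control 3, and the last, 2.96 kb outside the gene, changed direction with TMM factors. *Dnm3*, the gene of the membrane-severing GTPase dynamin 3, had 3 such regions of lower level, with 55.0 ± 22.1, 49.3 ± 18.6 and 41.5 ± 7.27 in *Tbx5*G125R/+ nuclei and 11.03 ± 6.65, 8.37 ± 6.33 and 5.76 ± 5.56 in control nuclei.

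**Figure D5:**
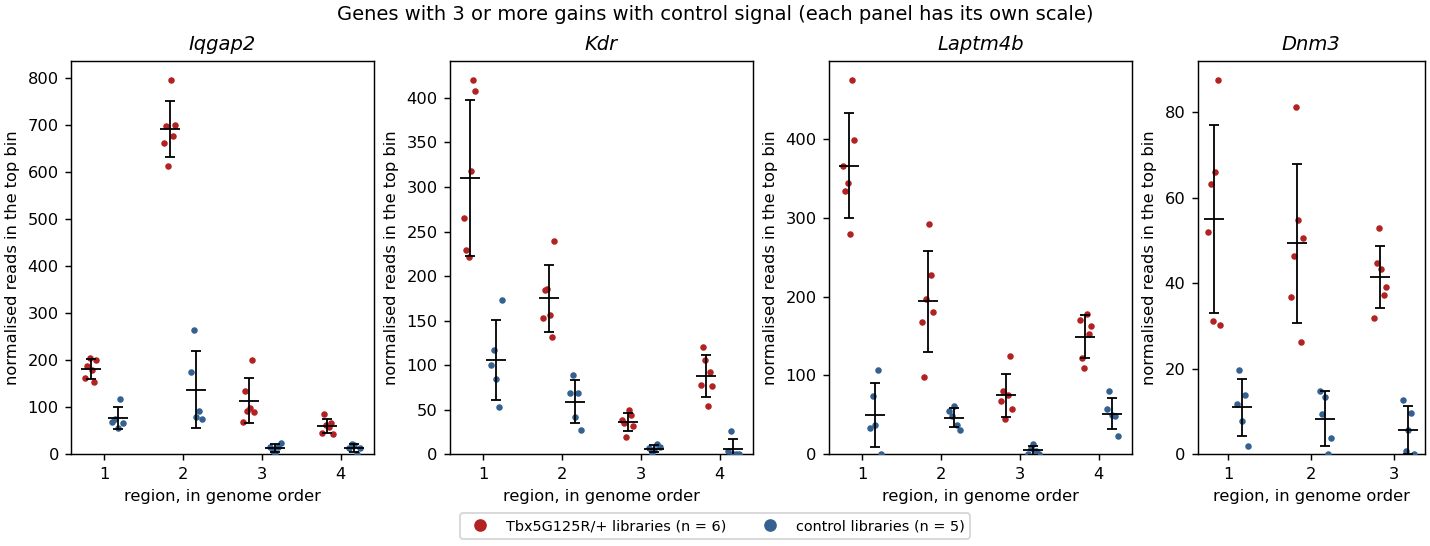
Normalised reads of the top bin in each *Tbx5*G125R/+ library (red, left of each pair) and control library (blue, right), with mean and SD in black, for the gains with control signal of *Iqgap2*, *Kdr*, *Laptm4b* and *Dnm3* in genome order, each panel on its own scale from 0. The second region of *Iqgap2* reached a mean of 691 in *Tbx5*G125R/+ and 137 in control nuclei, and the third region of *Laptm4b* and the third and last of *Kdr* were close to 5 in controls.

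Most of the 422 regions stood alone. With listed regions joined into domains across gaps of up to 12.5 kb, 378 had no other listed region in their domain, 23 shared 11 domains with each other, and 23 domains held a weaker gain beside them. Regions were a median of 4000 bp wide (interquartile range 2500 to 6938), wider than the gains under a control mean of 5 (medians 2250 and 1750 bp) and narrower than the losses (6000 bp), and 88 (20.9%) were 8 kb or wider. The widest by far was 140750 bp inside *Nfia*, a nuclear factor I gene, whose top bin had 253 ± 39.4 in *Tbx5*G125R/+ and 82.5 ± 24.0 in control nuclei; another region of *Nfia* had 162 ± 36.0 and 51.8 ± 24.7. *Serinc3*, a serine incorporator gene, had a region of 30250 bp at 306 ± 73.6 in *Tbx5*G125R/+ and 85.8 ± 55.1 in control nuclei. *Nfia* and *Serinc3* were picked for their width after their values were seen, and both regions of *Nfia* had ratios under 1 with TMM factors. The share of listed regions that were gains with control signal ran from 16.9% to 32.6% over the chromosomes, and 5 of the 422 were on the X chromosome.

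By position, 249 (59.0%) of the top bins had their middle inside a protein-coding gene, 122 lay within 100 kb of one and 51 (12.1%) lay farther away. The losses lay inside a gene in 74.8% of cases and all listed regions in 63.1%. Bins within 2.5 kb of an annotated start made up 69 of the 409 with a measured distance (16.9%), against 9.002% of the gains with a control mean from 1 to under 5, 9.89% of those under 1, 6.51% of the losses and 10.8% of all listed regions. The table of starts is incomplete and has none for chromosome 18, so these shares can be too low in every class. The 69 regions near a start had a median ratio of 4.51 and a median control mean of 15.0, and the 340 distal regions had 5.47 and 12.4. In 4 bins the start of a non-coding gene was found, among them *Zmiz1os1* and *Gm5432*. The bin with *Gm5432* also held the start of *Trib2*, a pseudokinase gene, and had 88.3 ± 11.8 in *Tbx5*G125R/+ and 29.4 ± 18.7 in control nuclei, with a ratio under 1 on the TMM scale.

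Groups of genes are described against the background that 25.5% of the listed regions were gains with control signal. The lists were assembled with earlier results of these data known, and regions below a control mean of 5 are counted beside them. All counts are of regions, and no list was tested.

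Axon guidance genes had 6 such regions, 8 weaker gains and no loss, so that 42.9% of their 14 listed regions were gains with control signal, each in a different gene, with a median of 138 in *Tbx5*G125R/+ and 40.4 in control nuclei. Semaphorins are guidance ligands, and plexins, neuropilins and Robo proteins are receptors. Among the ligands, *Sema5a* had 195.5 to 253.0 in *Tbx5*G125R/+ libraries, with a median of 218.1, against 85.2, 50.4, 64.1, 41.5 and 0 in the controls. *Sema3a* had 116.9 to 334.7 with a median of 153.0, against 30.9, 79.7, 75.3, 30.5 and 15.6, and *Sema6a* had 130 ± 29.5 and 42.8 ± 20.2. In each of these the genotypes were apart, but the *Sema6a* ratio of 3.05 changed direction with TMM factors. Among the receptors, *Plxna2* had 146 ± 51.3 in *Tbx5*G125R/+ and 38.0 ± 19.3 in control nuclei, *Nrp2* had 92.6 ± 24.1 and 9.18 ± 6.91, and *Robo1* is given above.

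Receptor tyrosine kinases and their ligands had 6 gains with control signal, 11 weaker gains and 4 losses (28.6% of 21). They were the 4 regions at the receptor gene *Kdr* and 1 each at the ligand genes *Nrg2* and *Fgf2*. The *Fgf2* bin, 0.347 kb from the start, had 37.2 to 75.4 in *Tbx5*G125R/+ libraries, with a median of 52.0, against 22.4, 2.73, 11.2, 12.5 and 0 in the controls. In TGF-beta and BMP signalling there were 3 gains with control signal, 12 weaker gains and 1 loss (18.8% of 16). *Fstl1*, a follistatin-like gene, had 136 ± 41.2 in *Tbx5*G125R/+ and 29.4 ± 20.9 in control nuclei, *Ltbp1*, which encodes a protein that holds latent TGF-beta in the matrix, 49.4 ± 11.6 and 13.2 ± 6.79. *Bmp6*, a BMP ligand gene, had 61.1 to 99.1 in *Tbx5*G125R/+ libraries with a median of 89.0, against 6.39, 0, 12.4, 9.69 and 9.75 in the controls. Its ratio of 11.2 was the largest of that list, and the groups were far apart.

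Cadherins, protocadherins and integrins had 6 gains with control signal, 7 weaker gains and 6 losses (31.6% of 19). *Fat4*, a giant cadherin gene, had 186.4 to 313.4 in *Tbx5*G125R/+ libraries, with a median of 269.6, against 38.3, 39.5, 38.2, 13.8 and 31.2 in the controls. This was the strongest of the list in *Tbx5*G125R/+ nuclei. *Cdh22* had 155 ± 79.6 in *Tbx5*G125R/+ and 26.4 ± 19.7 in control nuclei, and the integrin gene *Itgav* had 44.3 ± 10.4 and 13.04 ± 6.22 at a distal bin and 32.3 ± 11.7 and 5.73 ± 3.78 at a bin 1.85 kb from its start.

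Extracellular matrix genes had 8 gains with control signal, 22 weaker gains and 2 losses (25% of 32). The collagen genes *Col8a1* and *Col1a2* had bins 0.513 and 0.868 kb from their starts. *Col8a1* had 52.8 to 125.1 in *Tbx5*G125R/+ libraries, with a median of 108.4, against 22.4, 19.1, 17.99, 41.5 and 0 in the controls. *Col1a2* had 62.3 to 163.1 with a median of 98.7, against 8.52, 17.03, 4.50, 42.9 and 0, and its ratio of 7.02 was 13.6 without control 4. *Col15a1*, another collagen gene, had 91.1 ± 47.4 in *Tbx5*G125R/+ and 11.6 ± 17.1 in control nuclei at a bin 29.4 kb away. Here the genotypes overlapped because control 3 had 41.6, and without it the ratio of 7.83 was 22.04. *Fbln2*, the gene of fibulin 2, had 56.4 ± 19.1 and 11.04 ± 9.25, and *Fbn1*, the gene of fibrillin 1, 90.4 ± 34.0 and 8.25 ± 4.96. The ratio of *Fbln2*, 5.11, was 7.89 without control 1. Of the Galnt glycosyltransferase genes, *Galnt9* and *Galnt12* had 1 such region each. The one assigned to *Galnt12*, 28.9 kb from the gene, had 71.3 ± 39.5 in *Tbx5*G125R/+ and 6.77 ± 7.31 in control nuclei. Its ratio of 10.5 was 16.6 without control 4.

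Among genes of cardiac excitation and contraction, calcium handling genes had 2 gains with control signal, beside 4 weaker gains and 7 losses (15.4% of 13): *Itpr1*, the gene of an IP3 receptor, with 36.0 to 63.6 in *Tbx5*G125R/+ libraries and a median of 46.3, against 8.52, 12.9, 12.4, 11.1 and 11.7 in the controls, and *Prkg1*, a cGMP-dependent kinase gene that also stood for the list of adrenergic and cyclic nucleotide genes, with 124 ± 47.8 and 11.6 ± 11.2. The *Itpr1* controls were among the most even of all. Potassium, sodium, chloride and TRP channel genes had 4, beside 10 weaker gains and 4 losses (22.2% of 18). *Ano6*, a calcium-activated scramblase and channel gene, had 54.7 to 92.7 with a median of 69.9 in *Tbx5*G125R/+ libraries, against 30.9, 30.0, 24.7, 26.3 and 19.5 in the controls at a bin 0.657 kb from its start, and it changed direction with TMM factors. *Kcne4*, a potassium channel subunit gene, had 45.9 ± 17.8 in *Tbx5*G125R/+ and 7.81 ± 5.68 in control nuclei at a bin 45.2 kb away. *Trpv3* and *Clcn5* had control means of 5.88 and 5.30. The ratio of *Clcn5*, 12.3, was 20.1 without control 3.

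Cardiac transcription factor genes had 3 gains with control signal, 7 weaker gains and 10 losses (15.0% of 20). *Foxp1* had 49.1 ± 14.1 in *Tbx5*G125R/+ and 9.95 ± 8.25 in control nuclei, and *Mef2c* had 36.8 ± 17.8 and 6.26 ± 4.74. *Hand2* had 37.7 ± 16.4 and 5.35 ± 4.58 at a bin 35.7 kb from the gene. All 3 had a control mean under 10 and were at 0 in control 5. The lists for the sarcomere, energy metabolism, and conduction and sinus node held no such region among 7, 6 and 8 listed regions, and the adrenergic and cyclic nucleotide list held 1 of 18, with 13 losses. Of the genes that the study named in its text or figures, in part on these libraries, 6 had 9 such regions of 18 listed (50%), so this list is not independent of the values. Beside those given above, they included *Wdr3*, with 211 ± 64.2 in *Tbx5*G125R/+ and 23.9 ± 13.8 in control nuclei, and *Padi2*, with 73.2 ± 22.4 and 9.55 ± 7.53.

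A gain with control signal and a loss were assigned to the same gene in 9 genes. At *Dhrs7* they lay in 1 domain: beside the promoter region, a region centred 10.4 kb from the gene (chr12:72673501-72676250) had 7.39 ± 7.38 in *Tbx5*G125R/+ and 38.8 ± 16.8 in control nuclei. At *Plpp3*, a lipid phosphatase gene, the gains had 117 ± 16.4 and 56.8 ± 31.2 in *Tbx5*G125R/+, against 29.2 ± 13.9 and 10.3 ± 11.7 in control nuclei. Both lay to the same side of a loss with 225 ± 33.7 in *Tbx5*G125R/+ and 419 ± 111 in control nuclei, a ratio of 0.538. The ratio of the weaker of these gains, 5.53, was 10.5 without control 1, and the genotypes overlapped there. At *Hand2*, a cardiac transcription factor gene, the gain faced a loss with 2.30 ± 3.67 in *Tbx5*G125R/+ and 39.6 ± 22.8 in control nuclei. *Hdac9*, a histone deacetylase gene, had a gain with 61.6 ± 18.5 and 16.7 ± 10.8 and a loss with 55.0 ± 22.8 and 133 ± 41.1, in *Tbx5*G125R/+ and control nuclei. The others were *Zmiz1*, *Arhgap26*, *Aopep*, *Nid2* and *Tenm3*.

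Markers of other cell types were looked up because sorted nuclei can hold a residue of them. Of 20 endothelial markers, *Kdr* alone had gains with control signal, 4 of the 7 listed regions (57.1%), beside 2 weaker gains and 1 loss. Of 16 fibroblast markers, *Dcn* had 2, with 46.9 ± 21.2 and 48.1 ± 20.1 in *Tbx5*G125R/+ and 7.39 ± 5.87 and 7.82 ± 7.96 in control nuclei, and *Col1a2* had 1, beside 5 weaker gains. These 3 were 37.5% of the 8 listed regions of fibroblast markers. The 2 regions assigned to *Dcn* lay 97.25 and 40 kb from the gene. Of 14 macrophage markers, *Lgals3* had 1 of the 2 listed regions (50%), beside 1 weaker gain. These 3 shares stand beside 25.5% of all listed regions and rest on few regions. The 10 smooth muscle and pericyte markers had none and 1 weaker gain, and the 8 markers of epicardium and glia had no listed region. Cardiomyocyte markers held no gain and 4 losses, in 3 of 18 genes. Only called regions were deposited, so levels at most markers, their sum per library and any marker at 0 were not analysed here, and the labelled cell type could not be checked in full. The part of other cell types in these regions was not tested.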

How the data were processed

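H3K27ac CUT&RUN of sorted atrial cardiomyocyte nuclei was deposited as 1 table of called regions from 6 *Tbx5*G125R/+ and 5 control libraries. BWA, bedtools, DESeq2 and mm10 appear in the submitters' processing notes, without versions. Signal values deposited per library are the authors' normalised read counts of the most significant 500 bp bin of a region, reads divided by 1 size factor per library. Per the file headers the table also holds the authors' log2 fold changes and adjusted p-values, which were not used. It lists only regions with an adjusted p under 0.05, so unchanged regions were not analysed here, and the values are those of the most significant bin, not of the whole region. Column names of 4 *Tbx5*G125R/+ libraries spell the allele with an extra digit, as do the labels they were matched to.

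Group means and their ratios were computed on these values with no pseudocount, and losses are regions with a lower *Tbx5*G125R/+ mean. All 18172 values (100%) were whole multiples of 1 read within a tolerance of 0.05 reads. The recovered reads were tested with edgeR (quasi-likelihood, Benjamini-Hochberg), checked on simulated reads. The labels give 5 control and 6 *Tbx5*G125R/+ samples without naming the animals, so the spread measured is that between these samples. Replicate pairs differed by more than sampling noise (chi-square per degree of freedom 5.44 to 9.64). That spread cannot tell whether 2 libraries came from 1 animal, which is unknown, and each library was counted as 1 sample. The size factors ran from 0.457 to 2.04.

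Genes, starts and promoters came from RefSeq tables on GRCm38.p6 (79.9% of protein-coding genes had a start). Lists, members and named regions were chosen with earlier results of these data known. The result of 1 gene list is not reported here. Named were the 12 regions with the highest control mean, the 12 with the largest difference, the 10 largest and 8 smallest ratios, the 5 nearest regions on each side of the limit, genes with 3 or more regions, and up to 4 regions per list, and regions named beyond these were chosen after their values were seen. Alternatives were other limits, group medians, log2(value + 1), TMM factors, other windows and each library left out. Coordinates are 1-based on mm10. R 4.3.3, edgeR 4.0.16 and Python 3.11.15 were used.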

Additional observations from a re-analysis of the deposited data

Results flagged for a closer look

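In groups of 5 or 6 libraries, a library was examined when its gap to the nearest other exceeded the 95% limit of Dixon's test. Of 168 groups examined, 10 (5.95%) had such a library. The rate of 1 in 20 behind the limit holds for independent normal values. These groups share libraries and hold regions picked for their values, so the count is not compared with that rate. Over all 422 gains with control signal, 37 regions (8.77%) had one among the *Tbx5*G125R/+ libraries and 29 (6.87%) among the control libraries. Their part in the ratios is given by the values without each library.

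Among *Tbx5*G125R/+ libraries, replicate 5 had 543 normalised reads at *Lgals3* against 341 to 416 in the others, and 341 at *Colgalt2* against 124 to 203. Replicate 3 had 173 at *Cyp4f17* against 76.8 to 103, and replicate 1 was low at *Col8a1*, with 52.8 against 103 to 125.1.

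Among control libraries, replicate 2 had 306 at the region near *Lrrc55* against 189 to 209, and 25.2 at that near *Robo1* against 0 to 6.39. It also had 26.6 at the *Kdr* region inside the gene against 0 to 4.26. Replicate 1 had 149 near *Olfr987* against 99.5 to 114, and replicate 3 had 41.6 near *Col15a1* against 0 to 8.86. The median level of control replicate 5 over the 422 regions was 5.85, against 13.8 to 16.4 in the other controls.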

How the results depend on the processing

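The number of gains with control signal was 422. It was 263 with a control mean of 10 or more, 580 with 3 or more, 389 with group medians and 556 with TMM factors over the listed bins, of which 349 were among the 422. It ran from 405 to 469 without 1 library, and was 469 without the shallowest library of each genotype. The median ratio, 5.27, was 6.50 and 4.16 with control means of 3 and 10, 6.41 on the log2(value + 1) scale, 1.55 with TMM factors, 4.55 to 5.60 without 1 library (4.55 without control 5) and 4.39 without the shallowest libraries. Separation of the genotypes, 379 regions, was 20 with TMM factors and 382 to 389 without 1 library. Leaving out a library can only keep or raise this count, so nothing is read from that range. The count test put 73 of the regions higher with TMM factors. The share inside a gene was 64.7% when whole regions were placed. The share near a start was 11.2% within 1 kb, 21.3% within 5 kb and 6.36% where the top bin overlapped a promoter. The shifts with TMM factors include the part of the gain that such factors take up, and the cause of the other shifts was not tested.

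With TMM factors the log2 ratio was -0.85 at *Dhrs7*, -0.83 at *Zmiz1*, -0.80 at *Ptprk*, -0.72 at *Mlxip*, -0.69 at *Pcdh18*, -0.62 at *Tmem216*, -0.59 at *Cfl2*, -0.58 at the gene-free region of chromosome 5, -0.52 at *Spidr*, -0.48 at *Iqgap2*, -0.42 at *Arhgap5*, -0.38 at *Lgals3*, -0.31 at *Ano6*, -0.29 at *Golgb1*, -0.27 at *Cwc27*, -0.24 at *Lrrc55*, -0.22 at *Laptm4b*, -0.16 and -0.17 at *Kdr*, -0.14 at *Atp8a2* and -0.088 at *Sema6a*. None of the 82 regions named by rule changed direction without 1 library, which their selection nearly fixed, and 19 moved by more than 1.5-fold.

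The count test, the TMM version of it, the fit without the shallowest libraries, the fit with a replicate block and the promoter overlap were chosen after seeing the data. The planned motif search in the top bins was not run, since it needs a genome. The genotypes share replicate numbers 1 to 5, and no source says that a number marks a pair. Deviations of same-numbered libraries from their genotype means correlated from -0.15 to -0.017 across the listed regions in the 5 pairs, so the numbers were not taken as pairs. With the replicate number as a block, the count test put 422 of the 422 regions higher, as without it. Low control reads limit the ratios of regions near the limit.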
